A study of Mus musculus with 8 samples.

Results

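The subunits of oxidative phosphorylation were compared between the cerebral cortex of newborn (postnatal day 0) mice carrying the R342X mutation of Phf6 and of wild-type mice, all on the FVB/N background. Phf6 encodes a chromatin-associated zinc finger protein, and R342X replaces an arginine codon with a stop codon. There were 4 mutant and 4 wild-type libraries, prepared for messenger RNA from bulk cortex, and the labels number them within each genotype without naming animals, litters, sex or batches. The p-values therefore measure the spread between these libraries, which may be technical. A gene was a member when its symbol matched the name patterns of the respiratory chain and ATP synthase (mt-Nd, mt-Co, mt-Atp, mt-Cytb, Ndufa, Ndufb, Ndufc, Ndufs and Ndufv with a number, Sdha to Sdhd, Uqcr, Cox4 to Cox8, Atp5) and it had a transcript of type protein_coding. This gave 97 of 21784 symbols with such transcripts, 13 of them encoded by mitochondrial DNA (mtDNA) and 84 by the nuclear genome. By complex there were 42 members in complex I, 4 in complex II, 9 in complex III, 23 in complex IV and 19 in complex V. The name patterns take in tissue-restricted paralogs and a few genes with roles beside the subunits, such as Cox7a2l and Atp5s, and they miss subunits with other names, such as Ndufab1.

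Oxidative phosphorylation passes electrons from NADH and succinate through complexes I to IV to oxygen, and complex V uses the resulting proton gradient to make ATP. Complexes I, III, IV and V are built from products of both genomes, while complex II is wholly nuclear. The mtDNA is transcribed as long RNAs from both strands that are cut into messengers, so its genes are not transcribed one by one. Each nuclear subunit, in contrast, has its own promoter. In developing cortex, neurons come to rely on this pathway as they leave the glycolytic progenitor state.

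The labels and the data were checked before the comparison. Estimated depth was 30469700 to 39453200 reads in the mutant and 48841500 to 74266900 in the wild-type libraries, so the genotypes did not overlap in depth. The Phf6 messenger was lower in each of the mutants than in any wild type (43.7 to 49.2 against 81.8 to 102 CPM, counts scaled to library size, with an edgeR adjusted p of 0.00235 and a log2 fold change of -0.92). The tissue label was matched by cortical excitatory neuron markers, whose 10 genes summed to 3252 to 3469 TPM in mutants and 3342 to 3539 TPM in wild type. TPM, a transcript level in which each library has the same sum, is scaled by effective transcript length. Skeletal muscle markers summed to 8.66 to 10.9 TPM in mutants and 9.59 to 13.8 TPM in wild type, and male germ cell markers to 1.91 to 2.31 and 1.87 to 2.90 TPM, with 2 of the 8 at 0 in all libraries. Along the leading principal component of the expression values, which held 35.4% of the variance, libraries fell into a first set of mutants 1 to 3 with wild type 1 and a second set of mutant 4 with wild types 2 to 4. These sets were defined from the data and are not groups of the study. Because they are unbalanced over the genotypes, the ratio of the 2 genomes, the complex ratios, the medians of the members, the mtDNA-encoded genes of smallest p and the markers of brain cell types are also given within them, where each difference rests on 1 library of one genotype.

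A pair of short sequences shows how closely a member can resemble a copy elsewhere. The annotated mt-Nd3 transcript (348 bases, mtDNA positions 9459 to 9806, plus strand, GRCm38) and Gm28438 (345 bases, an unprocessed pseudogene on chromosome 1, positions 24612775 to 24613119, minus strand) differed by a single base, T3C, counted from 1 at the 5′ end of each transcript and shown in capitals over the first 17 bases.
mt-Nd3: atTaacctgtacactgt
Gm28438: atCaacctgtacactgt
Reads that miss this base and the ends of the transcripts could have come from either. The division of reads between them is given with the mt-Nd3 values.

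Promoters of nuclear members held 3 sequence motifs, which the name patterns did not use, more often than all promoters did. RefSeq promoters (GRCm38.p6, 250 bases before to 50 bases after the start) matched 68 of the 84 nuclear members by symbol or synonym, with 73 promoters. The NRF1 motif (GCGC, any base, then TGCGC, searched on both strands) was in 24.7% of member promoters and 4.60% of all 32851 promoters. The ETS-family core CCGGAAG, also on both strands, was in 21.9% against 8.86%, and the YY1 motif AAGATGGCG in 9.59% against 1.40%. At least 1 of the 3 motifs was in 47.9% of member promoters and 13.6% of all promoters. NRF1, the ETS-family factor GABP and YY1 are known regulators of nuclear respiratory genes, and a match in these windows is a description of the letters, not of binding. Cox6a1, the most abundant nuclear member whose promoter held both the NRF1 and the ETS motif, is shown as an example (chr5:115348909-115349208, minus strand), with the 2 NRF1 matches and the 1 ETS match in capitals.
Cox6a1: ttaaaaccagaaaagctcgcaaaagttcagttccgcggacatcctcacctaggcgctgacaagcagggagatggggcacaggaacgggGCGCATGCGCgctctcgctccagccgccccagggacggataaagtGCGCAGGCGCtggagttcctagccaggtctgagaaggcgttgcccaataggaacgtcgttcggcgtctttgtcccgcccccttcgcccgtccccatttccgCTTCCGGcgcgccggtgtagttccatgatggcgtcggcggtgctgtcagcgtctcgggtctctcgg
With these 3 matches in its promoter, Cox6a1 stood at 536, 560.2, 594 and 565 TPM in mutants 1 to 4 and 539, 531, 536 and 543 TPM in wild types 1 to 4.

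No member passed the test of genotype, and the mtDNA-encoded members stood on average slightly below wild type while the nuclear members stood near it. Of the 97 members, 93 passed the filter on low counts, 13 of them mtDNA-encoded and 80 nuclear. None of the 93 had an edgeR adjusted p under 0.05, where 0.0196% of the 15300 genes tested did. At an unadjusted p under 0.05 there were 4 members, all mtDNA-encoded and all lower in mutants. Genes at this level were a smaller share of the 93 members than of the 15300 genes tested. They were a larger share of the 13 mtDNA-encoded members, which are not transcribed one by one. The lowest adjusted p of a member was 0.308. The median log2 fold change was -0.21 over the mtDNA-encoded members, with 12 of 13 below 0, and -0.02 over the nuclear members, with 51 of 80 below 0. Over all genes tested the median was 0.01 and 47.9% were below 0. The fold changes of 69 nuclear members lay within 0.1 of 0 on the log2 scale and those of 76 within 0.2. DESeq2 on the same counts also called none of the members, where it called 2.65% of 13706 genes.

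**Figure D1:**
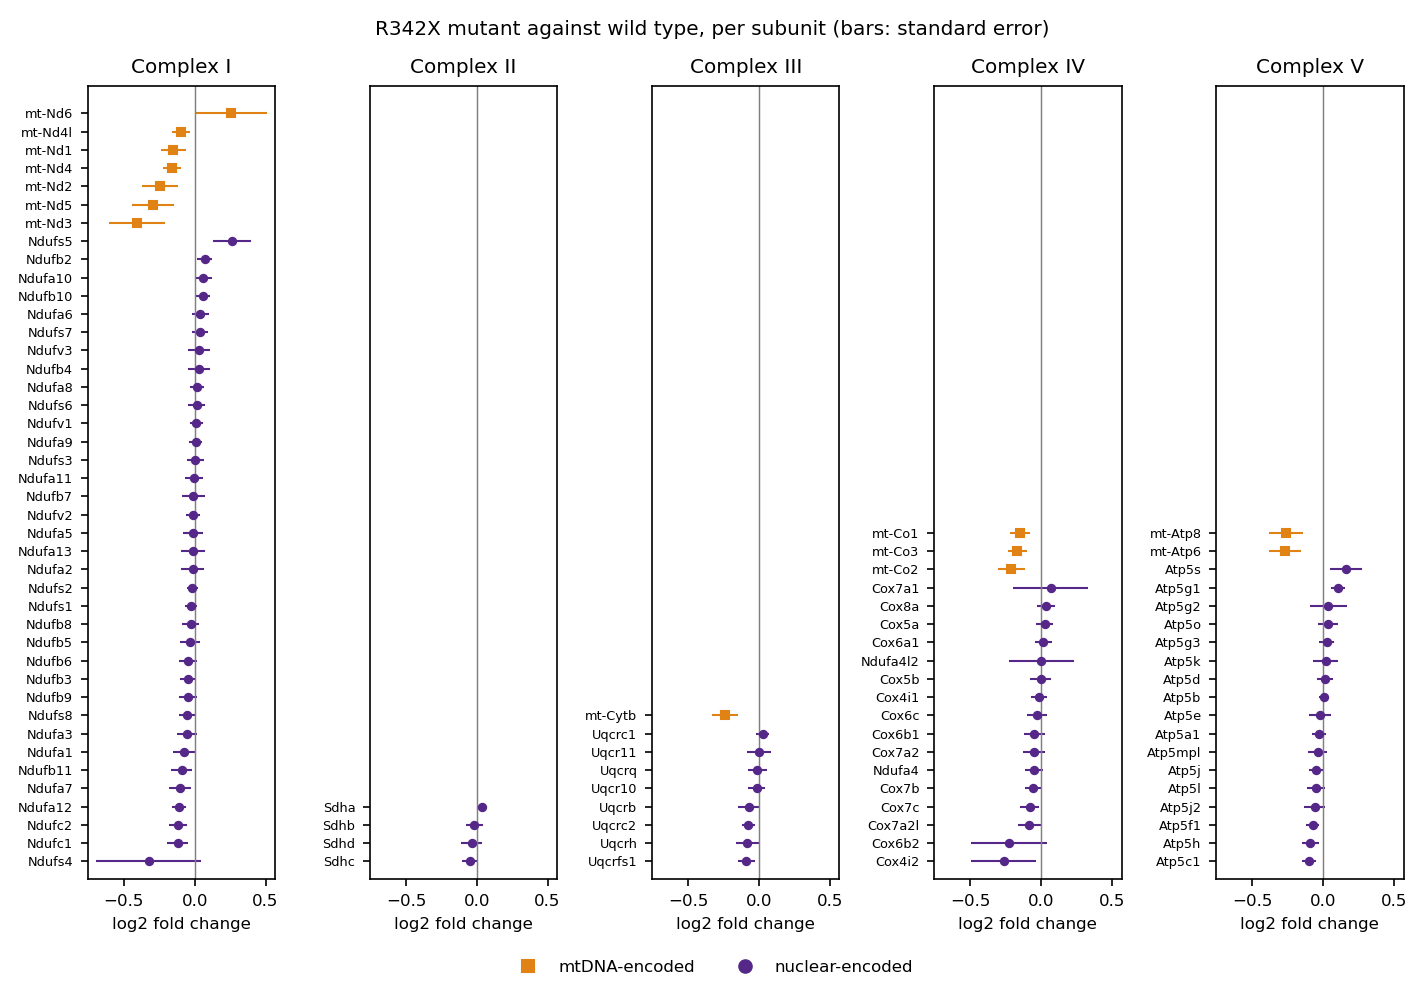
Log2 fold change (x axis, R342X mutant over wild type, 4 libraries each) of the 93 members that passed the filter, by complex, with bars of 1 standard error; squares are mtDNA-encoded and circles nuclear-encoded. All squares but mt-Nd6 lie left of 0, from -0.41 to -0.10, and most circles lie within 0.1 of 0.

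Summed over its 13 genes, the mtDNA-encoded messenger level was 74126, 74249.6, 79175 and 79869 TPM in mutants 1 to 4 and 77431, 84280, 83149 and 91569 TPM in wild types 1 to 4. Wild type 1 lay among the mutants, so the genotypes overlapped. The library sets did not, with at most 79175 TPM in the first and at least 79869 TPM in the second. The nuclear sum was 17929, 17966, 18662 and 18015 TPM in mutants and 17329, 17545, 17568 and 17845 TPM in wild types. On this scale every mutant was above every wild type, and the means differed by 3.25% of the wild-type mean. The nuclear share of protein-coding TPM overlapped, however, at 2.26% to 2.38% in mutants and 2.20% to 2.32% in wild type. The nuclear share of protein-coding reads also overlapped, at 0.699% to 0.753% in mutants and 0.672% to 0.756% in wild type. The mtDNA-encoded genes held 2.88% to 3.28% of protein-coding reads in mutants and 2.93% to 3.91% in wild type.

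The ratio of the 2 sums was lower in every mutant than in any wild type. In TPM it was 4.13, 4.13, 4.24 and 4.43 in mutants 1 to 4 (mean 4.24 ± 0.142, SD, n = 4) and 4.47, 4.804, 4.73 and 5.13 in wild types 1 to 4 (4.78 ± 0.273, SD, n = 4). Within the first set the 3 mutants averaged 4.17 against 4.47 in wild type 1, and within the second set mutant 4 had 4.43 against a mean of 4.89 in 3 wild types. Since no mutant reached any wild type in this ratio, its direction within the sets was fixed in advance. Counted in reads rather than TPM, the ratio was 4.12 to 4.44 in mutants and 4.35 to 5.18 in wild type, and there mutant 4 overlapped wild type 1. These sums have no test, since the members were chosen with earlier results of these data known.

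**Figure D2:**
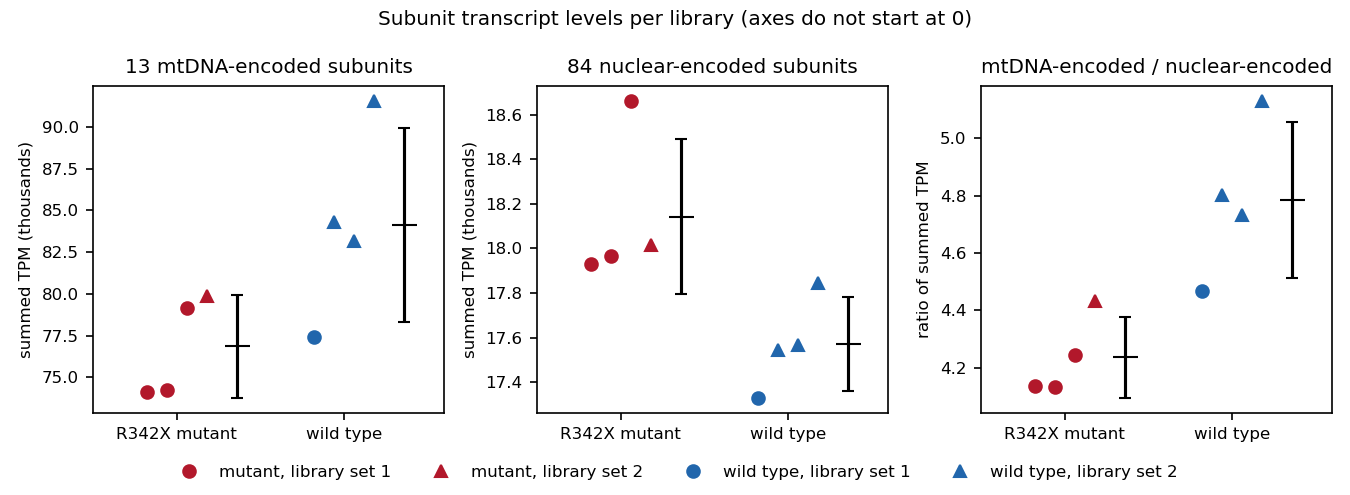
Summed TPM of the 13 mtDNA-encoded and the 84 nuclear members and their ratio in each library (y axes, not starting at 0), by genotype; circles are the first and triangles the second library set, and the black marks are means with SD (n = 4). The genotypes overlap in the mtDNA-encoded sum, and the ratio is 4.13 to 4.43 in mutants and 4.47 to 5.13 in wild type.

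The mean ratio was lower in mutants in all 4 complexes that draw on both genomes, and without overlap in 3 of them. In complex III, mt-Cytb over its nuclear partners was 2.80 to 2.91 in mutants and 3.03 to 3.53 in wild type. In complex IV the ratio was 5.91 to 6.17 against 6.47 to 6.86, and in complex V it was 3.15 to 3.43 against 3.46 to 4.46. The ratio in complex I overlapped, at 4.51 to 5.01 in mutants and 4.68 to 5.40 in wild type, because mutant 4 (5.01) lay above wild type 1 (4.68). Within the first set it was 4.51 to 4.54 in mutants and 4.68 in wild type 1, and within the second 5.01 in mutant 4 and 5.18 to 5.40 in wild types. The ratios of complexes III, IV and V did not overlap over all libraries, so their lower values in mutants within both sets were fixed in advance.

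Among the mtDNA-encoded genes, the levels ran over a wide range that was shared by all libraries. The most abundant was mt-Co2, a core subunit of cytochrome c oxidase, at a mean of 11637 TPM over the 8 libraries, followed by mt-Atp6 (11183 TPM), mt-Co3 (10231 TPM), mt-Atp8 (9206 TPM) and mt-Co1 (9191 TPM). The spread between libraries covered the gaps between these neighbours, with SDs of 317 to 1349 TPM within a genotype. The complex I genes were lower, from mt-Nd1 (6961 TPM) through mt-Nd4l (4926 TPM), mt-Nd4 (4317 TPM), mt-Nd2 (3897 TPM), mt-Nd5 (1877 TPM) and mt-Nd3 (1454 TPM) to mt-Nd6 (118 TPM). mt-Cytb, of complex III, stood between mt-Nd1 and mt-Nd4l at 5483 TPM. These ranks are by TPM, which divides by effective length, and that of mt-Atp8 (204 bases) was only 55 to 57. In CPM, mt-Atp8 averaged 333 and mt-Nd4l 374, against 7814 for mt-Co1 and 3071 for mt-Nd4. mt-Nd6 is the single member on the minus strand, while the other 12 are on the plus strand. Together the 13 genes made up 80.5% to 81.6% of the TPM of all members in mutants and 81.7% to 83.7% in wild type.

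**Figure D3:**
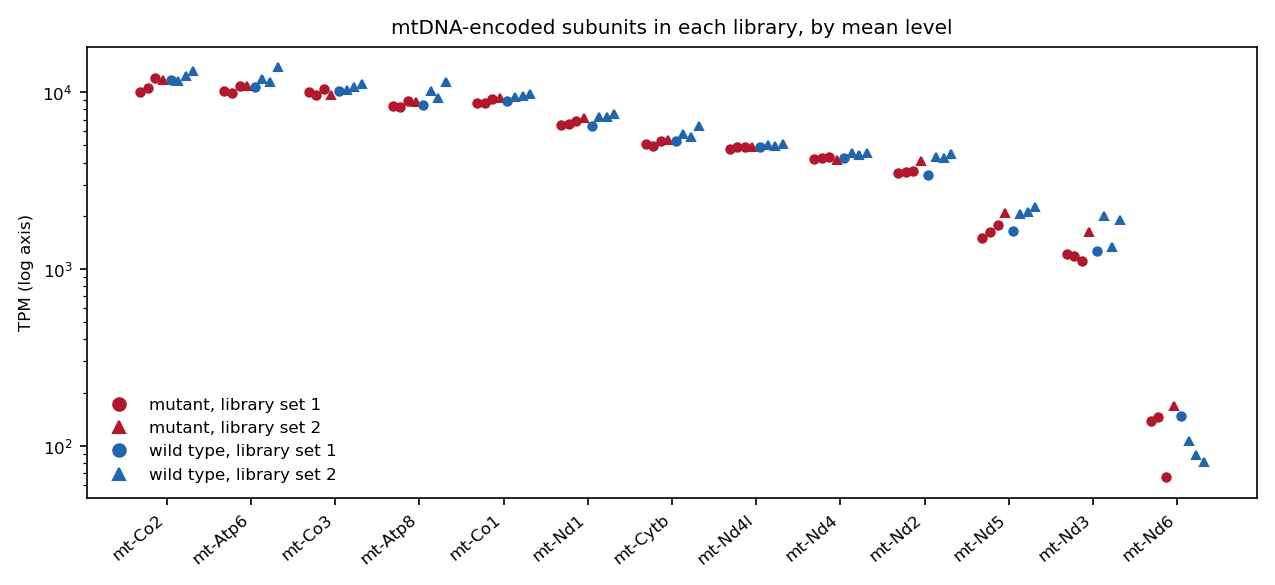
TPM (log axis) of each of the 13 mtDNA-encoded members in the 8 libraries, ordered by mean level, with red for mutant and blue for wild type, circles for the first and triangles for the second library set. Levels fall from 11637 TPM for mt-Co2 to 118 TPM for mt-Nd6, and for mt-Nd2 and mt-Nd5 the circles lie together below the triangles.

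The 4 members with the smallest p were spread over 4 complexes. mt-Cytb, which carries electrons within complex III, was 5076, 4987, 5329 and 5356 TPM in mutants 1 to 4 and 5326, 5786, 5566 and 6439 TPM in wild types 1 to 4. Mutants 3 and 4 overlapped wild type 1. Its log2 fold change was -0.24 (SE 0.09, edgeR unadjusted p = 0.0289, adjusted p = 0.308). mt-Nd4, a membrane subunit of complex I, was 4179, 4234, 4283 and 4134 TPM in mutants and 4269.5, 4509.8, 4414 and 4515 TPM in wild types, where mutant 3 was just above wild type 1 (log2 fold change -0.16, SE 0.06, edgeR adjusted p = 0.318). mt-Co3 of complex IV was 10035, 9629, 10369.7 and 9603 TPM against 10128, 10279, 10654 and 11151 TPM, and mutant 3 lay above wild types 1 and 2 (log2 fold change -0.17, SE 0.07, edgeR adjusted p = 0.328). mt-Atp6, part of the proton channel of ATP synthase, was 10135, 9913, 10839 and 10872 TPM against 10639, 11848, 11413 and 13806 TPM, where mutants 3 and 4 lay above wild type 1. Its log2 fold change was -0.27 (SE 0.11, edgeR adjusted p = 0.332). For all 4 genes the highest value was in wild type 4. Within the first set their differences in log2 CPM were -0.03 (mt-Cytb), 0.02 (mt-Nd4), 0.01 (mt-Co3) and -0.01 (mt-Atp6), and within the second -0.20, -0.18, -0.20 and -0.23.

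The other mtDNA-encoded subunits had adjusted p-values of 0.358 to 0.632. mt-Atp8, whose annotated sequence overlaps mt-Atp6 by 43 bases, had a log2 fold change of -0.26 (SE 0.12). mt-Co2 stood at -0.21 (SE 0.09) and mt-Co1, the catalytic subunit of complex IV, at -0.15 (SE 0.07). In complex I, mt-Nd5 stood at -0.29 (SE 0.15), mt-Nd2 at -0.25 (SE 0.12), mt-Nd1 at -0.15 (SE 0.09) and mt-Nd4l, which overlaps mt-Nd4 by 7 bases, at -0.10 (SE 0.06). Counts in overlapping bases can be assigned to either gene. mt-Nd2 was 3488, 3528, 3590.1 and 4110.3 TPM in mutants and 3417, 4295, 4272 and 4476 TPM in wild types. The 4 libraries of the first set were low and those of the second set high, whatever their genotype. Such a full split of TPM by set was also found for mt-Nd1, mt-Nd3, mt-Nd5, mt-Co1, mt-Atp6 and mt-Cytb. For mt-Nd4, mt-Nd4l, mt-Nd6, mt-Co2, mt-Co3 and mt-Atp8 the sets overlapped. With the library set as a term in edgeR, the fold of mt-Nd2 was -0.03, that of mt-Nd5 -0.04 and that of mt-Nd1 -0.02.

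mt-Nd6 was the 1 mtDNA-encoded gene above 0, and it varied within both genotypes. It was 139, 146, 66.5 and 169 TPM in mutants and 147, 107, 88.4 and 80.6 TPM in wild types, so the lowest and the highest value were both mutant (log2 fold change 0.25, SE 0.25, edgeR adjusted p = 0.632). It shares 14 bases with mt-Nd5 on the opposite strand, and whether the counting used strand is not given in the sources used here. If it did not, reads of the 2 genes may not be told apart in that stretch. Long RNAs of the plus strand could then also be counted anywhere along mt-Nd6.

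mt-Nd3 had the lowest fold of the 13, and its level depends on the copy whose first bases are printed above. It was 1217, 1190.3, 1111 and 1613 TPM in mutants and 1272, 1989.8, 1340.0 and 1900.4 TPM in wild types, where mutants 1 to 3 were below every wild type and mutant 4 lay among them (log2 fold change -0.41, SE 0.20, edgeR adjusted p = 0.372). Over all libraries 55.9% of the reads of the pair were assigned to Gm28438, from 47.3% in wild type 2 to 61.6% in mutant 3. Both genes together gave 258, 240.2, 267 and 311 RPM (reads scaled to the library total) in mutants and 253, 351, 315 and 410.1 in wild types, so the sum overlapped as the member did. Another unprocessed pseudogene, Gm29216, took 3.07% of the reads of its pair with mt-Co1. It aligned with 483 of the 1545 bases of mt-Co1, so this is not its share of the common stretch. In all, 9 of the 13 mtDNA-encoded members had 11 near-identical copies among annotated transcripts (at least 95% identity over at least 50% of the shorter transcript), and the remaining 9 copies took under 1% of the reads of their pairs.

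The mtDNA-encoded genes differed between genotypes by different amounts in the 2 library sets. Within the first set the median difference of the 13 genes was 0.01 in log2 CPM, with 5 genes below 0, and within the second set it was -0.12, with 12 below 0. The nuclear members were mostly above 0 in the first set (70 of 80, median 0.08) and evenly divided in the second (37 above 0, median -0.01). The medians of all genes tested were 0.00 in each. In both sets the mtDNA-encoded median lay below the nuclear one. With the library set as a term in edgeR, the median was -0.08 for mtDNA-encoded and 0.04 for nuclear members. That fit called none of the 93 members and 0.333% of the genes tested, and its lowest adjusted p of a member was 0.249.

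**Figure D4:**
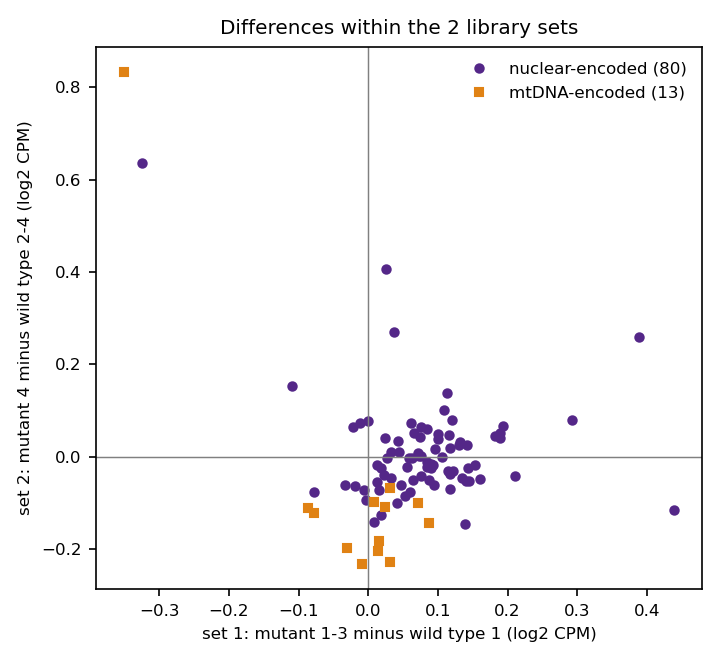
Difference in mean log2 CPM, mutant minus wild type, within the first library set (x axis, 3 mutants and 1 wild type) and the second (y axis, 1 mutant and 3 wild types) for the 13 mtDNA-encoded (squares) and 80 nuclear (circles) members. Squares lie near 0 on the x axis and below 0 on the y axis except mt-Nd6, at -0.35 and 0.83, while 70 circles lie right of 0.

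Complex I supplied 35 nuclear members, from 284 TPM for the accessory subunit Ndufb8 to 18.9 TPM for Ndufb4. Their median log2 fold change was -0.01, with 22 below 0 and 13 above. Ndufb8 was 290.3, 280.0, 291 and 288 TPM in mutants and 276, 277, 279 and 290.0 TPM in wild types, with overlap (log2 fold change -0.03, SE 0.06). Core subunits that hold the flavin and iron-sulphur clusters lay close to 0, with Ndufv1 at 0.01 and Ndufs1 at -0.02, both with SEs of 0.04 to 0.05.

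The highest and the lowest fold among nuclear members were those of Ndufs5 and Ndufs4, and in both the estimated level varied with how reads were divided. Ndufs5, an accessory subunit encoded on chromosome 4 (positions 123712710 to 123718202, minus strand), was 129, 172, 175 and 109 TPM in mutants and 117, 121, 114 and 113 TPM in wild types, so mutants 2 and 3 stood apart and mutant 4 was the lowest library. Its log2 fold change was 0.26 (SE 0.13, edgeR adjusted p = 0.386). BC002163, a near-identical gene on chromosome 16, took 15.4% and 15.9% of the reads of the pair in mutants 2 and 3 and 31.6% to 35.9% in the other libraries. Both genes together gave 34.6, 36.003, 38.6 and 31.4 RPM in mutants and 30.6, 33.0, 32.6 and 34.0 in wild types, a narrower spread than that of Ndufs5 alone.

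Ndufs4, a subunit needed for stable complex I and mutated in Leigh syndrome, was 13.5, 11.9, 11.8 and 36.9 TPM in mutants and 12.2, 33.6, 14.3 and 35.0 TPM in wild types. Mutant 4 and wild types 2 and 4 were high and the other 5 libraries low (log2 fold change -0.32, SE 0.37, edgeR adjusted p = 0.675). Its protein-coding transcripts held 35.5% to 40.8% of the gene's reads in the 3 high libraries and 16.8% to 19.0% in the others, the rest lying mostly in transcripts annotated for nonsense-mediated decay. All transcripts of the gene together gave 50.3 to 55.1 RPM in mutants and 48.1 to 58.3 in wild types, with no such split.

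**Figure D5:**
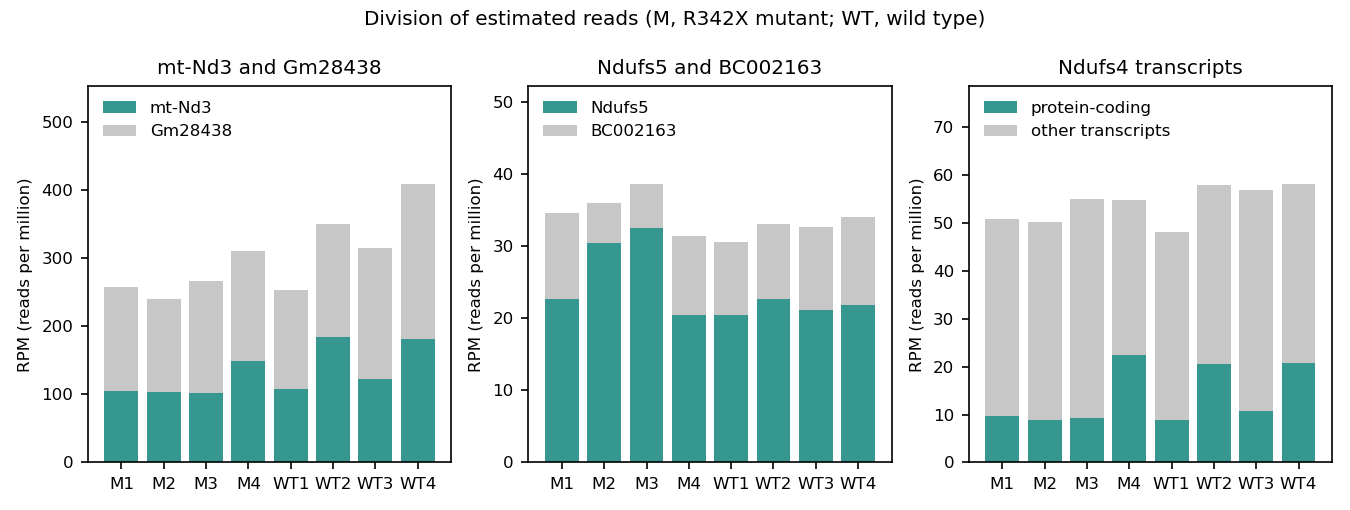
Estimated reads in RPM in each library (M1 to M4 mutant, WT1 to WT4 wild type) for mt-Nd3 with its copy Gm28438, Ndufs5 with BC002163, and the protein-coding and other transcripts of Ndufs4, stacked from 0. Ndufs5 alone is highest in M2 and M3, where BC002163 took 15.4% and 15.9% of the reads, and the Ndufs4 total lies between 48.1 and 58.3 in all libraries.

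Ndufa12 was the only one of the 93 members whose CPM did not overlap between genotypes. It was lower in mutants, at 33.1 ± 1.14 CPM (SD, n = 4) against 35.7 ± 0.821 (SD, n = 4), and edgeR put the log2 difference at -0.11 (SE 0.05, adjusted p = 0.359). Such lower values without overlap were found for 3.29% of all genes tested and higher ones for 3.37%, against 1 and 0 of the 93 members. In TPM, Ndufa12 overlapped (140.0 to 147 in mutants and 143 to 156 in wild type), and a copy, Gm15920, held 27.9% to 33.3% of the reads of the pair.

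On the TPM scale 8 members, all nuclear, were higher in every mutant than in any wild type, where 4.85% of all genes tested were, and none was lower, where 1.64% were. They were Ndufa10 and Ndufv3 of complex I, Uqcrc1 of complex III, Cox5a and Cox8a of complex IV, and Atp5a1, Atp5g1 and Atp5g3 of complex V. In CPM none of these 8 stood apart, and the edgeR fold of Atp5a1 was below 0 (-0.03). The scales also differed for the nuclear members as a whole, with a median of 0.05 on log2(TPM + 1) and 15 of 80 below 0, beside a shift of 0.07 in the median of all genes tested on that scale. Effective lengths differed between libraries, and the median over transcripts of 500 bases was 285 to 294 in mutants and 283 to 288 in wild type. The part of this in the TPM values was not tested.

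Complex II, succinate dehydrogenase, links the respiratory chain to the citric acid cycle, and its 4 genes showed no difference that passed the test. Sdha, the flavoprotein with the succinate site, was 104, 107, 103 and 98.97 TPM in mutants and 103, 93.3, 96.5 and 88.6 TPM in wild types. The genotypes overlapped only through mutants 3 and 4 and wild type 1 (log2 fold change 0.03, SE 0.03, edgeR adjusted p = 0.64). Sdhb, the iron-sulphur subunit, was 161 to 173 TPM in mutants and 153 to 164 TPM in wild type (-0.02, SE 0.06). The membrane anchors Sdhc (256 to 289.8 and 257 to 265 TPM) and Sdhd (97.0 to 107 and 94.9 to 103 TPM) stood at -0.05 (SE 0.05) and -0.04 (SE 0.07).

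In complex III the 8 nuclear members had a median of -0.04, with 6 below 0. Uqcrh, the hinge protein near cytochrome c1 and the most abundant of them, was 380.2, 341, 382 and 373 TPM in mutants and 351, 386, 366 and 390.3 TPM in wild types, with full overlap (log2 fold change -0.08, SE 0.08). The extremes were the core protein Uqcrc1 (0.03, SE 0.05) and the Rieske iron-sulphur protein Uqcrfs1 (-0.09, SE 0.06).

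Complex IV included most of the paralogs that differ between tissues, and the widely expressed form was the more abundant one in each pair. Cox4i1 had a mean of 767 TPM and its hypoxia- and lung-linked paralog Cox4i2 3.08 TPM. Likewise Cox6a1 stood at 550.5 TPM and the heart and muscle form Cox6a2 at 0.663 TPM, and Cox7a2 at 297 TPM and the muscle form Cox7a1 at 2.81 TPM. Cox6b1 stood at 442 TPM and the testis form Cox6b2 at 6.93 TPM, and Cox7b at 118 TPM and Cox7b2 at 0.441 TPM. Cox8a stood at 442 TPM, while Cox8b and Cox8c had 0 reads in all 8 libraries, which allows up to 0.0404 to 0.0985 RPM per library (3 reads, counting error only). Ndufa4 (500.1 TPM), now assigned to complex IV, stood against Ndufa4l2 at 4.90 TPM. The 4 members that did not pass the filter were Cox6a2, Cox7b2, Cox8b and Cox8c.

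None of these isoforms passed the test of genotype. Cox4i1 was 767, 771, 801 and 784 TPM in mutants and 737, 748, 755 and 773 TPM in wild types (log2 fold change -0.01, SE 0.06, edgeR adjusted p = 0.919). Cox4i2 was 2.49, 2.77, 2.31 and 3.94 TPM against 2.76, 3.65, 3.14 and 3.60 TPM, where mutant 4 was highest (log2 fold change -0.26, SE 0.23). The folds of Cox6b2 (-0.22), Cox7a1 (0.07) and Ndufa4l2 (0.00) carried SEs of 0.23 to 0.27, about as large as or larger than the folds themselves. Cox8a was 459.9, 448, 467 and 452 TPM against 410.1, 436, 427 and 438 TPM, without overlap in TPM but with overlap in CPM (log2 fold change 0.04, SE 0.06). Cox7a2l, a factor in joining complexes III and IV, stood at -0.08 (SE 0.08), and the 3 members on the X chromosome with Phf6 at -0.07 (Ndufa1, SE 0.08), -0.09 (Ndufb11, SE 0.07) and -0.05 (Cox7b, SE 0.06).

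In complex V the 17 nuclear members had a median of -0.02, with 9 below 0. The catalytic beta subunit Atp5b was 824, 837, 815 and 789 TPM in mutants and 802, 758, 774 and 742 TPM in wild types, and the genotypes overlapped through mutant 4 and wild type 1 (log2 fold change 0.01, SE 0.03). The highest fold was that of Atp5s (0.16, SE 0.11), a coupling factor gene at a mean of 13.2 TPM, and the lowest that of Atp5c1, the gamma subunit in the rotor (-0.10, SE 0.05).

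The membrane ring of ATP synthase is made of subunit c, which 3 genes encode as the same mature protein. Atp5g1 was 290.2, 293, 306 and 277 TPM in mutants and 261, 252, 259 and 260.1 TPM in wild types. Every mutant was above every wild type in TPM, the log2 fold change was 0.10 (SE 0.05, edgeR adjusted p = 0.374), and the CPM overlapped. Atp5g3, the most abundant of the 3, was 615, 617, 626 and 606 TPM against 575, 579.6, 570.0 and 587 TPM (0.03, SE 0.05). Atp5g2 stood at a mean of 43.6 TPM (0.04, SE 0.13), but Gm10175, a transcript with identical sequence over the aligned bases, took 85.0% of the reads of the pair, so the level given for Atp5g2 depends on that division. Of the 84 nuclear members, 25 matched transcripts of other genes in this way, mostly pseudogenes. Copies took more than 10% of the reads of the pair for Atp5g2, Ndufb4 (Ndufb4c, 74.8%), Ndufs5 and Ndufa12. Atp5o shares 287 bases with transcripts of Donson, a protein-coding gene whose reads include its own, and its copy Gm5436 took 2.69%.

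The authors' deposited table held 95 of the 97 members, 91 of them with an adjusted p. None was under 0.05, where 2.78% of the 14991 genes with an adjusted p were, and the lowest, in the authors' deposited table, was 0.269 for Atp5g1, with a log2 fold change of 0.08. By the authors' deposited table, 12 of 13 mtDNA-encoded members were below 0 and 64 of 82 nuclear members above 0, with folds from -0.04 to 0.08 on the log2 scale. The edgeR folds ran from -0.41 to 0.26, with 51 of 80 nuclear members below 0, the other direction. Whether the deposited folds were shrunk is not given, so the sizes of the 2 sets of folds cannot be compared directly.

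Genes that serve the same pathway did not pass the test either, which only 0.0196% of all genes tested passed. Of 30 tested genes for mtDNA upkeep, transcription and RNA processing, none was called, and 20 were below 0 (median -0.05). The smallest p was that of Ssbp1, the mitochondrial single-stranded DNA-binding protein, at 24.9 ± 0.687 against 29.4 ± 2.19 CPM (mutant and wild type, SD, n = 4, log2 fold change -0.24, SE 0.06, edgeR adjusted p = 0.209). Of 16 regulators of nuclear respiratory genes none was called, and the smallest p was that of Ppargc1a, a coactivator of mitochondrial biogenesis (21.5 ± 2.08 against 16.9 ± 2.23 CPM, SD, n = 4, log2 fold change 0.35, SE 0.11, edgeR adjusted p = 0.25). None of 44 assembly factors (Coa6 first, 0.43, SE 0.16), 78 mitochondrial ribosomal proteins (Mrps17 first, -0.16, SE 0.05) or 18 genes of mitochondrial content and cytochrome c (Slc25a5 first, -0.10, SE 0.05) was called. Their medians were -0.01, -0.03 and -0.03, with 23, 46 and 12 genes below 0. None of 18 citric acid cycle and pyruvate dehydrogenase genes (Pdha1 first, 0.11, SE 0.04) or 20 glycolytic genes (Aldoa first, 0.18, SE 0.04) was called, and 11 of each were above 0, with medians of 0.03 and 0.01. Mitochondrial ribosomal RNA carried over into the libraries made up 0.148% to 0.178% of all reads in mutants and 0.159% to 0.214% in wild type.

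Marker levels of cell types stand beside these values, and no marker on any of the lists was called, where 0.0196% of all genes tested were. Dividing-progenitor markers summed to 180 to 222 TPM in mutants and 222 to 224 TPM in wild type, with 10 of 10 below 0 (median -0.27). Their median difference was -0.34 within the first library set and 0.03 within the second, so the direction was not kept there. Astrocyte and oligodendrocyte markers summed to 865 to 994 TPM in mutants and 703 to 863 TPM in wild type, with 10 of 12 above 0 and medians of 0.09 and 0.15 within the sets. Microglial markers (8 of 8 above 0, 0.15 and 0.12 within the sets) summed to 101 to 122 TPM in mutants and 86.3 to 102 TPM in wild type. Excitatory neuron markers, with sums given above, had 7 of 10 below 0 (-0.06 and -0.04 within the sets), and interneuron markers, at 673 to 736 TPM and 683 to 743 TPM, 6 of 9 below 0 (-0.03 and -0.02). Choroid plexus and ependymal markers summed to 972 to 1352 TPM in mutants and 833 to 1237 TPM in wild type, with 8 of 8 above 0, but their median difference was -0.08 within the first set and 0.43 within the second. Those of endothelium (7 of 8 above 0, 0.17 and 0.28 within the sets) summed to 226 to 266 TPM and 199.9 to 228 TPM, and those of meningeal fibroblasts (7 of 8 above 0, 0.18 and 0.48) to 328 to 531 TPM and 303 to 368 TPM. Pericyte and smooth muscle markers (7 of 10 above 0, 0.08 and 0.21) summed to 74.3 to 107 TPM and 81.0 to 92.1 TPM. Red blood cell genes varied widely within both genotypes, from 4126 to 8029 TPM in mutants and from 2421 to 10422 TPM in wild type, with 3 of the 6 tested above 0 and median differences of 1.12 and 0.33 within the sets. The part of cell composition in the subunit levels was not tested, and in bulk tissue fewer cells of a type and less RNA per cell cannot be told apart.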

How the data were processed

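For each transcript, the deposited quantification of a library holds an expected count (estimated, not whole), a TPM value and an effective length, per the file headers. The submitters' processing notes name Salmon 0.12.0, DESeq2 and the build GRCm38. Bias options, use of strand, and the model and any shrinkage of the comparison table are not given here. That table, as deposited, holds a signal level (normalized counts averaged over samples), log2 fold changes, standard errors, p-values and adjusted p-values.

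Members, gene lists and tests were chosen with earlier results of these data known. Counts and TPM of protein_coding transcripts were summed per symbol, and counts rounded. The edgeR package (4.0.16, R 4.3.3) tested genotype alone, two-sided, by quasi-likelihood F test after TMM scaling and the default filter on low counts, with Benjamini-Hochberg adjustment over 15300 genes and calls at 0.05, and was tested on simulated data. CPM is after TMM scaling, with a prior count of 2 for log2 CPM. Named were all mtDNA-encoded and complex II genes, in each other complex the most abundant nuclear member and the widest folds (average log2 CPM of at least 1), isoform pairs, the smallest p in each direction and of each list, and others after their values were seen. DESeq2 1.42.0 and limma 3.58.1 served as alternatives. Copies were sought with blastn 2.17.0 in GENCODE M21 transcripts, the source of all positions. Depth was 30469700 to 74266900 estimated reads per library, and the fewest reads of a tested member in a library were 10.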

Additional observations from a re-analysis of the deposited data

Results flagged for a closer look

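In 4 of 66 groups of 4 library values tested, 1 library lay far from the other 3, by Dixon's test of the gap over the range. Chance gives about 1 in 20 such groups. Mutant 4 was the highest mutant for mt-Nd2, at 4110.27 TPM, and for Ndufs4, at 36.9 TPM. Wild type 2 was the lowest wild type for Atp5g1, at 252 TPM. Mutant 3 had the highest nuclear sum among mutants, at 18662 TPM.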

How the results depend on the processing

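None of the members was called under the 20 alternative fits, which included other normalizations, filters and tests, the library set as a term, the replicate block, each library left out in turn and, chosen after seeing the data, reads of nuclear copies added to mtDNA-encoded genes. The lowest adjusted p of a member under any of them was 0.0599, when wild-type replicate 1 was omitted. The mtDNA-encoded median stayed below 0 in each, from -0.27 without mutant replicate 4 to -0.08 with the library set as a term, with 12 of 13 genes below 0. The nuclear median ran from -0.07 to 0.05 and was above 0 with scaling to total counts, on log2(TPM + 1) and log2(TPM + 0.1), with a term for the set, and without mutant replicate 1 or wild-type replicate 4. The number of genes called among all tested, 3, was 363 with DESeq2, 51 with the library set as a term and 8 with the replicate block, and 3 to 544 with 1 library left out, 544 being without mutant replicate 4. With 1 library left out, the fold of Cox8a ran from -0.0133 to 0.0636 and that of Uqcrc1 from -0.0013 to 0.0447, both below 0 when wild-type replicate 1 was the one omitted. A term for the library set gave Ndufs4 0.20, Cox7a2l 0.0336 and Sdhc 0.0176, and limma gave Sdhc 0.0603 on log2(TPM + 1) and 0.0605 on log2(TPM + 0.1). The cause of these changes was not tested. Same-numbered libraries correlated at 0.24, -0.06, -0.08 and 0.27 in their deviations, so the numbers were not taken to pair libraries (mutants 1 and 4 correlated best with their own number, mutants 2 and 3 with wild type 1). Mean mutant depth was 55.6% of the wild-type mean. The largest standard error among members was that of Ndufs4 (0.37), and those of mt-Nd6 and the rare complex IV paralogs were 0.23 to 0.27.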
